A study of Homo sapiens with 14 samples.

Results

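The BLM dissolvasome and the RecQ helicases were followed as 9 genes, TOP3A, TOP3B, RMI1, RMI2, BLM, WRN, RECQL, RECQL4 and RECQL5, among 59471 gene names in each count file. The 9 genes were chosen by name: the subunits of the dissolvasome, the other RecQ helicases and the second type IA topoisomerase. RNA-seq of SCC23, an established head and neck squamous cell carcinoma (HNSCC) line, was analysed in 14 libraries. KMT2D-WT cells carried Cas9 with a guide to LacZ. The KMT2D-KO lines KO1 and KO2 carried Cas9 with a guide to KMT2D, the gene of a histone H3 lysine methyltransferase, and no cloning from single cells was described. Cells were kept in high glucose medium or deprived of glucose for 6 h, with 3 KMT2D-WT and 4 KMT2D-KO libraries in each condition, from 2 experiments. The labels do not say which libraries came from separate cultures, so p-values measure the spread between these libraries only.

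Recombination leaves chromosomes joined by Holliday junctions. BLM, a RecQ helicase, pushes such junctions together, and the topoisomerase TOP3A passes strands through one another until the chromosomes separate without crossing over. RMI1 and RMI2 are the small scaffold subunits that hold TOP3A to BLM, and FANCM brings the whole complex to stalled forks and crosslinks. Inherited loss of BLM causes Bloom syndrome, with many sister chromatid exchanges, and loss of WRN or RECQL4 causes other syndromes of genome instability. The nucleases GEN1 and MUS81 and the nuclease scaffold SLX4 belong to the alternative route, which cuts junctions and can leave crossovers.

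In glucose-deprived cells, 6 of the 9 genes were lower in KMT2D-KO than in KMT2D-WT cells and none was higher, where 24.9% of all genes tested were called lower and 25.9% higher. TOP3A was 1.82-fold lower, RMI2 1.67-fold, RECQL5 1.64-fold, RMI1 1.59-fold, BLM 1.34-fold and WRN 1.26-fold. With glucose, TOP3A alone passed the test, at 1.23-fold lower. The difference between the glucose conditions itself passed the test for RECQL5, RMI2 and TOP3A. All 4 dissolvasome subunits had an adjusted p below 0.05 without glucose in the fit of all 7 libraries, but when each pair of very similar libraries described next was summed to 1, the calls of RMI1, BLM and WRN were lost, as were all 3 calls of a difference between the glucose conditions.

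Total counts lay between 15669154 and 62968057 per library, and in the 4 libraries of experiment 2 with glucose both mates of a pair had been counted. The 2 KMT2D-WT and the 2 KMT2D-KO libraries of experiment 2 without glucose differed within each pair little more than counting noise allows, with a chi-square per gene of 1.65 and 1.71, against 22.97 to 72.7 in the other 4 pairs. Whether these pairs are separate cultures, and whether the KO1 and KO2 labels of that pair hold, is not known, so line-by-line values without glucose are given only as labelled. KMT2D mRNA was not absent from any library labelled KMT2D-KO: with glucose it stood at 182 and 184 CPM (read counts scaled to a common library size, with TMM factors) in KO1 and at 323 and 373 CPM in KO2, against 266 to 279 CPM in KMT2D-WT. Without glucose it lay at 19.9 to 190 CPM in KMT2D-KO and 231 to 239 CPM in KMT2D-WT, and the lowest value was that of KO1 in experiment 1. The paper reports the mutations by genomic sequencing and the loss of KMT2D protein by western blot, and mRNA counts do not measure the protein. Squamous markers were present in every library (SFN 463 to 1194 CPM, TP63 71.3 to 218 CPM), apart from KRT6A, which stayed below 0.995 CPM. KRT5 was low in some libraries, with a range of 1.60 to 194 CPM. Without glucose 5 of the 8 squamous markers were higher in KMT2D-KO and 0 lower, where 25.9% and 24.9% of all genes were. Among them were KRT5 (2.86 ± 0.79), KRT17 (2.16 ± 0.39) and CDH1 (1.53 ± 0.39, log2 fold changes), while KRT14 did not pass the test (-0.18 ± 0.18). With glucose 1 of the 7 tested was lower, KRT14 (-1.74 ± 0.34), and 0 were higher. Of the 5 leukocyte markers PTPRC did not exceed 0.0553 CPM and CD14 did not exceed 1.16 CPM. Of the 3 endothelial markers CDH5 was higher in KMT2D-KO without glucose (2.24 ± 0.32), at no more than 4.13 CPM in any library, and PECAM1 and VWF stayed below 0.320 CPM. Of the 6 fibroblast markers 3 were tested with glucose, and all 3 were higher in KMT2D-KO, where 13% of all genes were. They were COL1A1 (1.26 ± 0.17), COL1A2 (2.72 ± 0.47) and COL3A1 (5.24 ± 0.89), the last 2 at no more than 5.67 and 5.59 CPM. Without glucose COL1A1 alone was tested, and it was higher (1.33 ± 0.14). The lineage markers DCN and LUM of fibroblasts did not exceed 0.821 CPM. The 6 fibroblast markers, summed, were higher in KMT2D-KO, at 12.5 to 28.4 CPM against 6.09 to 7.51 CPM in KMT2D-WT with glucose and 6.53 to 12.4 CPM against 3.54 to 5.76 CPM without (COL1A1 alone 3.31 to 16.6 CPM over all libraries), and the part of these markers in the results was not tested. The single markers named here were chosen after their values were seen.

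The promoter sequences of TOP3A, RMI1 and RECQL5 are shown because these genes were among the 4 with the largest called differences without glucose. The windows come from RefSeq on GRCh38.p14, hold the 250 bases before an annotated start, and are written on the strand of the gene. RMI1 has 2 such starts. Capitals mark the GC box GGGCGG, the CCAAT box or an E2F-type octamer (TTTCCCGC or TTTGGCGC or TTTCGCGC or TTTGCCGC), on either strand.
TOP3A, chr17:18314995-18315244, minus strand: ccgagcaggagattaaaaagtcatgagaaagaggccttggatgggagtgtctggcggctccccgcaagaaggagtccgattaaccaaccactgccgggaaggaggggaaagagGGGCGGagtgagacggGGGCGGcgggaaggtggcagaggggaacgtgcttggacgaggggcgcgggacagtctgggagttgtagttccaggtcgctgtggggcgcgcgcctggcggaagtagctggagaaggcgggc
RMI1, chr9:83980109-83980358, plus strand: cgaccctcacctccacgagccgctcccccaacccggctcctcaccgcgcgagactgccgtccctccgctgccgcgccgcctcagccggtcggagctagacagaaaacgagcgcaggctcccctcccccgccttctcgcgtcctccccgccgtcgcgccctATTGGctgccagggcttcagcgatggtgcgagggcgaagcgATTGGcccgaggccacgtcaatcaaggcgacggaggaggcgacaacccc
RMI1, chr9:83980555-83980804, plus strand: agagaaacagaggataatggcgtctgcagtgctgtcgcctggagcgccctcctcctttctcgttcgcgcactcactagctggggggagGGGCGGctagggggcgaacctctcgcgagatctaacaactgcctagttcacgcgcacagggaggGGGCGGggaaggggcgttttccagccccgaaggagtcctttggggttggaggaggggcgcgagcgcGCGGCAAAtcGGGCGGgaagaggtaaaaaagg
RECQL5, chr17:75667155-75667404, minus strand: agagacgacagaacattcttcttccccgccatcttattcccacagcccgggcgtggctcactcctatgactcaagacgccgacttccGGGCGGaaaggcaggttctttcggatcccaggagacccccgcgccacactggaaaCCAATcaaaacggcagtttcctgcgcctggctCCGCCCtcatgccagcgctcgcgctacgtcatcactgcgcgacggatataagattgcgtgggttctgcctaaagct
TOP3A had 2 GC boxes and no CCAAT, the upstream RMI1 window had 2 CCAAT letters on the opposite strand, and the downstream RMI1 window had 3 GC boxes and 1 E2F-type octamer, 32 bases before its start. RECQL5 had 2 GC boxes and 1 CCAAT. Of 35116 promoter windows of this length, 42.6% held the GC box, 32% held CCAAT and 2.79% held an E2F-type octamer. The letters TTTGAA of the CHR element, held by 13.3% of the windows, were in none of the 7 windows found for 6 of the 9 genes (TOP3A, TOP3B, RMI1, BLM, RECQL and RECQL5). The printed motifs did not overlap one another, and a match of letters is a description only.

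TOP3A, the topoisomerase of the complex (chr17:18271428-18315007, 8224 exonic bases, none shared with another gene), showed the clearest separation by genotype. With glucose it stood at 153, 159 and 134 CPM in KMT2D-WT. The KMT2D-KO libraries with glucose had 118 and 113 CPM in experiment 1 and 125 and 123 CPM in experiment 2. Every KMT2D-KO library was therefore below every KMT2D-WT library. Without glucose the KMT2D-WT values were 148, 137 and 138 CPM and the KMT2D-KO values 68.2, 88.3, 78.2 and 80.3 CPM, again with no overlap and with a wider gap. The log2 fold change was -0.30 ± 0.09 (SE, edgeR adjusted p = 0.0321) with glucose and -0.86 ± 0.08 (adjusted p = 0.000288) without. The call with glucose did not hold when any one of 4 of the 7 libraries was left out, with adjusted p from 0.0534 to 0.229, whereas the call without glucose held in each of the 7.

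RMI1, the scaffold that stabilises the open form of TOP3A (chr9:83980798-84004074, 3420 exonic bases, none shared), was at very different levels in the 2 experiments, so each experiment has to be read alone. In experiment 1 without glucose it was 11.5 CPM in KMT2D-WT and 6.96 and 5.94 CPM in KMT2D-KO. In experiment 2 without glucose it was 27.6 and 29.0 CPM in KMT2D-WT and 18.9 and 20.1 CPM in KMT2D-KO. Within each experiment every KMT2D-KO value was below the KMT2D-WT values, although the groups overlap when the experiments are pooled. The log2 fold change with experiment in the fit was -0.67 ± 0.11 (adjusted p = 0.00221), and the within-experiment differences of mean log2 CPM were -0.83 and -0.54. With glucose the values were 15.5 against 12.7 and 12.8 CPM in experiment 1 and 30.0 and 32.7 against 25.5 and 28.5 CPM in experiment 2. That difference of -0.24 ± 0.10 did not pass the test (adjusted p = 0.114).

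RMI2, which binds the C-terminal part of RMI1 (chr16:11249619-11381662, 7.2% of exonic bases shared with AC099489.2), behaved differently in the 2 glucose conditions. With glucose the KMT2D-WT values were 20.2, 23.9 and 25.2 CPM and the KMT2D-KO values 18.6, 18.0, 23.1 and 24.7 CPM, so the groups overlapped. Without glucose KMT2D-WT stood at 22.3, 23.5 and 22.6 CPM and KMT2D-KO at 13.7, 12.4, 13.998 and 14.5 CPM. The 4 KMT2D-KO libraries lay together and well below the KMT2D-WT libraries, in both experiments. The log2 fold change was -0.07 ± 0.09 (adjusted p = 0.630) with glucose and -0.74 ± 0.09 (adjusted p = 0.000695) without. Leaving out any one library did not change the call without glucose.

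BLM, the helicase of the complex (chr15:90717346-90816166, 8.5% of exonic bases shared with AC124248.2), showed a smaller difference, which passed the test without glucose and missed it with glucose. Without glucose experiment 1 gave 17.9 CPM in KMT2D-WT and 11.03 and 14.1 CPM in KMT2D-KO. Experiment 2 gave 31.9 and 31.5 CPM in KMT2D-WT and 24.9 and 25.1 CPM in KMT2D-KO. As for RMI1, the genotypes separated within each experiment and overlapped across them. The log2 fold change was -0.43 ± 0.09 (adjusted p = 0.00748) without glucose and -0.28 ± 0.10 (adjusted p = 0.0586) with glucose. With glucose the values were 17.1 against 14.4 and 13.6 CPM in experiment 1, and 36.3 and 36.04 against 31.0 and 28.1 CPM in experiment 2. Leaving out KMT2D-WT of experiment 1 raised the adjusted p without glucose to 0.0573.

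**Figure D1:**
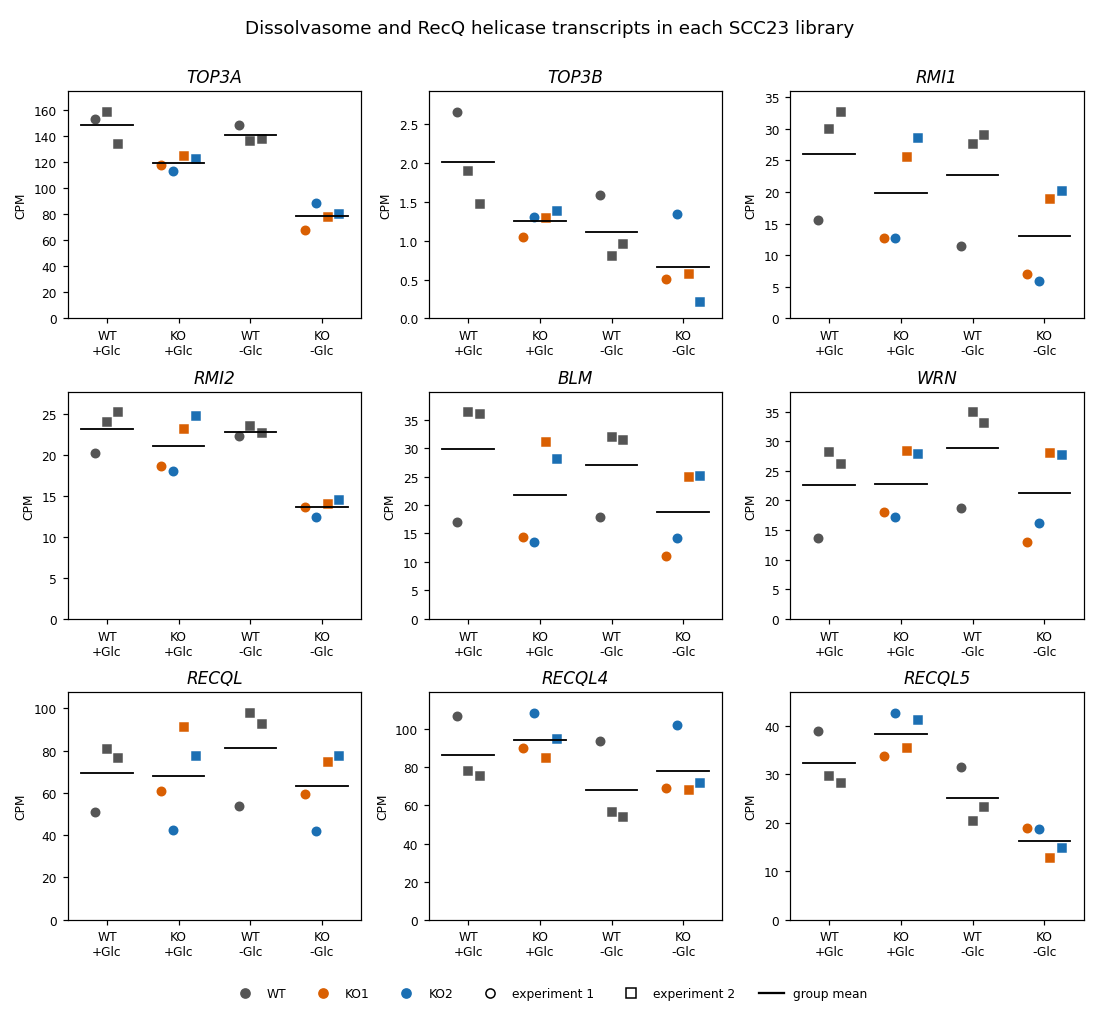
Level of each of the 9 genes in CPM (vertical axis, from 0, one scale per panel) in every library of the 4 groups (WT or KO, with glucose +Glc or without -Glc); colour gives the line, circles are experiment 1 and squares experiment 2, and the black line is the group mean. TOP3A, RMI2 and RECQL5 show no overlap of WT and KO without glucose, while RMI1, BLM, WRN and RECQL lie higher in experiment 2 than in experiment 1.

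WRN, a RecQ helicase that also carries an exonuclease (chromosome 8, 1.4% of exonic bases shared), was lower in KMT2D-KO cells without glucose only by a small margin. In experiment 1 it stood at 18.7 CPM in KMT2D-WT and 12.9 and 16.3 CPM in KMT2D-KO. In experiment 2 it stood at 34.9 and 33.1 CPM in KMT2D-WT and 28.1 and 27.7 CPM in KMT2D-KO. The log2 fold change was -0.33 ± 0.09 (adjusted p = 0.0169), and the call was lost without any one of 5 of the 7 libraries, all but KO1 and KO2 of experiment 1. With an offset for exonic length the difference was -0.19 (adjusted p = 0.0696). With glucose WRN was 13.7 against 18.1 and 17.1 CPM in experiment 1 and 28.2 and 26.2 against 28.3 and 27.8 CPM in experiment 2, a log2 difference of 0.17 ± 0.11 (adjusted p = 0.324).

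RECQL5, a RecQ helicase that binds RNA polymerase II and restrains its elongation (chr17:75626845-75667189), was lower in KMT2D-KO cells without glucose. The KMT2D-WT libraries had 31.6, 20.3 and 23.2 CPM and the KMT2D-KO libraries 18.8, 18.6, 12.7 and 14.8 CPM. The groups did not overlap, and the log2 fold change was -0.72 ± 0.10 (adjusted p = 0.00112). With glucose KMT2D-WT had 38.8, 29.7 and 28.2 CPM and KMT2D-KO 33.7, 42.6, 35.4 and 41.2 CPM. There the estimate had the other sign, 0.24 ± 0.13, and did not pass the test (adjusted p = 0.218). SMIM5 on the opposite strand shares 17.3% of the exonic bases of RECQL5, and reads were counted without strand. SMIM5 itself had at most 1.21 CPM in any library, so few reads were assigned to it, and reads that overlap both genes were assigned to neither. At these low counts its KMT2D-KO effect differed between the glucose conditions by -3.27 ± 0.61 (edgeR adjusted p = 0.00681). The part of SMIM5 in the RECQL5 values was not tested.

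RECQL and RECQL4 did not pass the test in either glucose condition. RECQL, the most abundant RecQ helicase in many cells (chr12:21468910-21501669), had 53.8 CPM in KMT2D-WT and 59.5 and 42.0 CPM in KMT2D-KO in experiment 1 without glucose. In experiment 2 it had 97.9 and 92.6 CPM in KMT2D-WT and 74.5 and 77.6 CPM in KMT2D-KO. The 2 KMT2D-KO libraries of experiment 1 lay on either side of KMT2D-WT, those of experiment 2 below it, and the log2 difference was -0.25 ± 0.15 (adjusted p = 0.206). Leaving out KO1 of experiment 1 gave -0.37 (adjusted p = 3.0e-07), in a fit that called 6312 lower and 6136 higher of 16739 genes. Experiment 1 then held 1 library per genotype, so the error rested largely on the similar pairs of experiment 2. RECQL4, which takes part in the start of DNA replication (chromosome 8), had 94.1 CPM in KMT2D-WT and 69.3 and 102.3 CPM in KMT2D-KO in experiment 1 without glucose. In experiment 2 it had 56.4 and 54.1 CPM in KMT2D-WT and 68.3 and 72.1 CPM in KMT2D-KO. The within-experiment differences had opposite signs, -0.16 and 0.35, and the fitted one was 0.13 ± 0.14 (adjusted p = 0.460). With KO1 of experiment 1 left out, RECQL4 was higher in KMT2D-KO by 0.23 (adjusted p = 0.000139), with the same limit as for RECQL.

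TOP3B, the second type IA topoisomerase, acts on DNA and RNA together with TDRD3, and it could hardly be measured. Its gene (chr22:21957025-21982813) shares 90.8% of its exonic bases with the antisense gene PPM1F-AS1, and reads that overlap more than 1 gene were not assigned, which left 614 bases. Its raw counts ran from 5 to 128 per library. With glucose it stood at 2.66, 1.89 and 1.47 CPM in KMT2D-WT and 1.04, 1.31, 1.29 and 1.38 CPM in KMT2D-KO. Without glucose it stood at 1.59, 0.800 and 0.952 CPM in KMT2D-WT and 0.501, 1.35, 0.569 and 0.209 CPM in KMT2D-KO. The groups did not overlap with glucose and overlapped without it. The log2 differences of -0.64 ± 0.26 (adjusted p = 0.112) and -1.004 ± 0.433 (adjusted p = 0.0929) did not pass the test. The second became -1.37 (adjusted p = 0.0260) when KO2 of experiment 1 was left out and -0.78 (adjusted p = 0.0489) when KO1 of experiment 1 was. The first of these fits called 4647 lower and 4548 higher of 16715 genes, the other 6312 and 6136 of 16739. In both the error rested largely on the similar pairs of experiment 2.

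PPM1F-AS1, whose exons cover the shared bases, was lower in KMT2D-KO cells in both conditions. With glucose it had 24.3, 21.3 and 19.2 CPM in KMT2D-WT and 10.5, 10.4, 10.6 and 10.6 CPM in KMT2D-KO. Without glucose it had 30.4, 23.3 and 24.0 CPM in KMT2D-WT and 3.64, 8.24, 5.55 and 5.61 CPM in KMT2D-KO. No KMT2D-KO library reached the KMT2D-WT range in either condition. The log2 fold changes were -1.04 ± 0.11 (adjusted p = 0.000321) and -2.21 ± 0.22 (adjusted p = 0.000345). Counting without strand does not tell transcripts of TOP3B and PPM1F-AS1 apart, and the part of either gene in the values of the other was not tested. For RECQL, 41.5% of the exonic bases are shared with PYROXD1, which did not pass the test (0.24 ± 0.13, adjusted p = 0.156, without glucose).

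**Figure D2:**
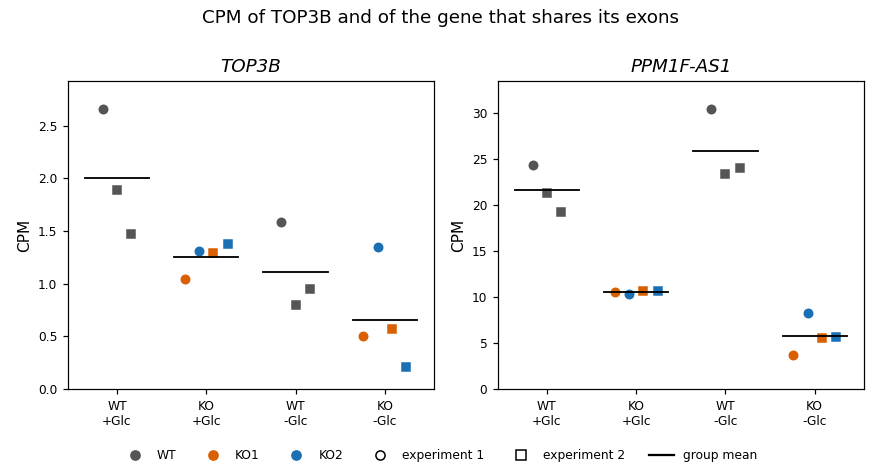
CPM (vertical axes, from 0) of TOP3B and of PPM1F-AS1, the antisense gene that shares 90.8% of the exonic bases of TOP3B, in each library of the 4 groups; colour gives the line, the symbol the experiment and the black line the group mean. PPM1F-AS1 separates WT from KO in both glucose conditions, with KO at 10.4 to 10.6 CPM with glucose and 3.64 to 8.24 CPM without, whereas TOP3B lies at 2.66 CPM or below.

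Counted over the 9 genes, the KMT2D-KO comparison without glucose had 6 called lower and 0 higher. Of the 16782 genes tested there, 24.9% were called lower and 25.9% higher. The median log2 fold change was -0.67 over the 9 genes and 0.00 over all genes, and 8 of the 9 estimates were negative. Of the 6 called genes, 4 (TOP3A, RMI1, RMI2 and RECQL5) were at least 1.5-fold lower. With glucose 1 of the 9 was called lower and 0 higher, where 11.7% of 20423 genes were called lower and 13% higher. At that count the 9 genes did not stand out from the background, and their median was -0.07 against 0.02 over all genes. Without glucose 3 of the 9 (TOP3A, RMI2 and RECQL5) had every KMT2D-KO library below every KMT2D-WT library, as did 18.7% of 18678 genes. With glucose 2 of the 9 (TOP3A and TOP3B) did, as did 10.8% of genes. In bulk RNA, fewer cells with a transcript and less of it per cell cannot be told apart.

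These counts depended on the experiment term and on the similar pairs. Without the experiment term 2 of the 9 genes, TOP3A and RMI2, were called lower without glucose, and with each similar pair summed to 1 library, 3 were (TOP3A, RMI2 and RECQL5). The log2 fold changes with summed pairs were -0.87, -0.74 and -0.71 for these 3 and -0.70, -0.44 and -0.33 for RMI1, BLM and WRN, which lost their calls. Over all genes, 4179 were called lower and 4342 higher with the experiment term and the pairs kept separate. Without the experiment term 1953 and 1706 of the same 16782 genes were, and with summed pairs 1268 and 1517 of 16867.

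**Figure D3:**
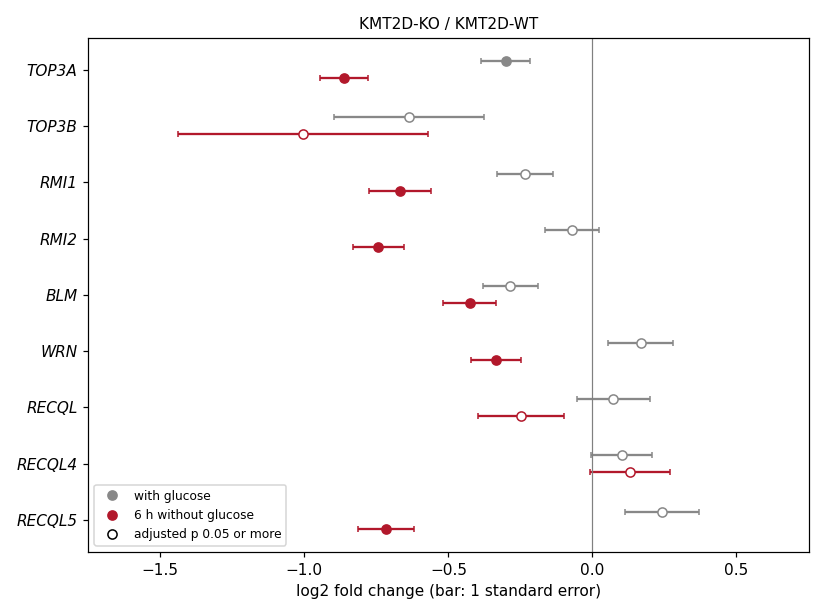
Log2 fold change of KMT2D-KO against KMT2D-WT (horizontal axis, bars 1 SE) for the 9 genes with glucose (grey) and after 6 h without glucose (red); filled symbols have an adjusted p under 0.05. The 4 dissolvasome subunits, WRN and RECQL5 are filled and left of 0 without glucose, and TOP3A alone is filled with glucose.

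Whether the KMT2D-KO effect differed between the glucose conditions was tested in a single fit of all 14 libraries. The effect was more negative without glucose for RECQL5 by -0.93 ± 0.17 (adjusted p = 0.00676), for RMI2 by -0.65 ± 0.12 (adjusted p = 0.00734) and for TOP3A by -0.54 ± 0.14 (adjusted p = 0.0278). So 3 of the 9 genes were called lower and 0 higher, against 6.54% and 4.73% of 18678 genes. With an offset for exonic length the split over all genes turned from 1221 lower and 884 higher to 1119 lower and 1600 higher. WRN (-0.48 ± 0.15, adjusted p = 0.0551) and RMI1 (-0.41 ± 0.14, adjusted p = 0.0859) did not pass. BLM had a difference of -0.11 ± 0.14 (adjusted p = 0.646), which does not show that its KMT2D-KO effect was alike in both conditions. The TOP3A call was lost when any one of 8 of the 14 libraries was left out, with adjusted p from 0.0565 to 0.120, and the RMI2 and RECQL5 calls held in each of the 14. When the similar pairs were summed, these 3 calls were lost, with adjusted p of 0.0563 for RECQL5, 0.0838 for RMI2 and 0.148 for TOP3A. Over all genes that fit called 192 lower and 66 higher of 21043.

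Removal of glucose was also compared within each genotype, with the same libraries as above and with experiment as a term shared by both glucose conditions. The labels number the experiments alike in both conditions, but whether these are the same experiments is not known. In KMT2D-WT cells the dissolvasome subunits did not pass the test. TOP3A changed by -0.07 ± 0.07, RMI2 by -0.01 ± 0.08, BLM by -0.10 ± 0.08 and RMI1 by -0.23 ± 0.09 on the log2 scale, with adjusted p from 0.124 to 0.969. RECQL4 (-0.37 ± 0.07, adjusted p = 0.0359) and RECQL5 (-0.37 ± 0.08, adjusted p = 0.0432) were lower and WRN was higher (0.37 ± 0.07, adjusted p = 0.0352). That is 2 of 9 lower and 1 higher, where 7.58% and 7.15% of 17227 genes were. All 3 calls were lost when any one of the 4 libraries of experiment 2 was left out and when the similar pair was summed, but in those fits at most 1 gene of all tested was called. The log2 fold changes stayed within -0.46 to -0.32 for RECQL4, -0.41 to -0.29 for RECQL5 and 0.33 to 0.42 for WRN with any one library left out.

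In KMT2D-KO cells 4 of the 9 genes were lower after 6 h without glucose and 0 were higher, against 16% and 14% of 16057 genes. In the comparisons with 0 of the 9 genes called higher by edgeR, 0 were higher at an unadjusted p under 0.05 and 0 by DESeq2 with or without the experiment term. RECQL5 fell most, 2.42-fold (log2 fold change -1.28 ± 0.14, adjusted p = 0.00169). RMI1 was 1.67-fold lower (-0.74 ± 0.15, adjusted p = 0.0114), RMI2 1.56-fold (-0.64 ± 0.11, adjusted p = 0.00723) and TOP3A 1.54-fold (-0.62 ± 0.10, adjusted p = 0.00483). BLM (-0.22 ± 0.12, adjusted p = 0.190) and WRN (-0.16 ± 0.12, adjusted p = 0.343) did not pass. The within-experiment differences of TOP3A were -0.57 and -0.64, those of RMI2 -0.49 and -0.74, those of RECQL5 -1.02 and -1.48 and those of RMI1 -0.98 and -0.47. In experiment 2 the libraries with glucose were counted by both mates and those without were single-end, so that glucose and library type cannot be told apart there. In experiment 1 both conditions were single-end, and these 4 genes had the same sign.

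**Figure D4:**
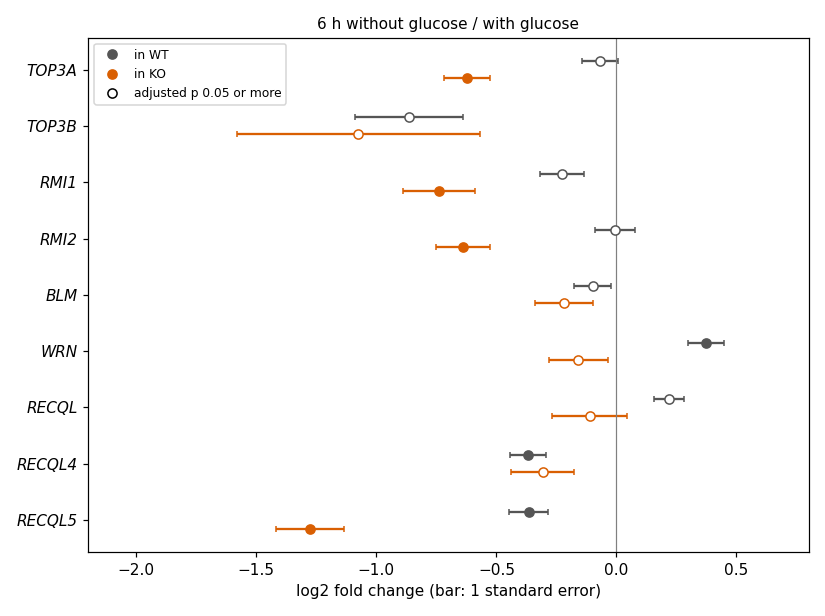
Log2 fold change after 6 h without glucose against with glucose (horizontal axis, bars 1 SE) for the 9 genes in KMT2D-WT (grey) and KMT2D-KO (orange) cells; filled symbols have an adjusted p under 0.05. TOP3A, RMI1, RMI2 and RECQL5 are filled and left of 0 in KO, and RECQL4, RECQL5 and WRN are filled in WT.

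Levels of different genes were compared per kilobase of exonic bases not shared with another gene (RPKM). In KMT2D-WT cells with glucose RECQL was highest at 31.4 ± 7.2 (SD, n = 3), before RECQL4 at 21.5 ± 4.3 and TOP3A at 18.1 ± 1.5. Then came RMI1 at 7.62 ± 2.69, RMI2 at 6.89 ± 0.78, BLM at 4.89 ± 1.81, RECQL5 at 4.45 ± 0.80, TOP3B at 3.27 ± 0.98 and WRN at 2.80 ± 0.97. The order was not that of each experiment: in experiment 1 alone RECQL4 (26.5) was above RECQL (23.1), RMI2 (6.02) above RMI1 (4.54), and RECQL5 (5.37) and TOP3B (4.33) above BLM (2.81). Over all 3 libraries neighbours in the order lay within the sum of their SDs of each other, except TOP3A and RMI1. TOP3A was above BLM, RMI1 and RMI2 in each of the 3 libraries. In glucose-deprived KMT2D-KO cells TOP3A was 9.58 ± 1.01, RMI2 4.07 ± 0.27, RMI1 3.79 ± 2.21 and BLM 3.09 ± 1.197 RPKM (SD, n = 4), and TOP3A was still the highest of the 4 subunits.

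The proteins that act with or beside the complex were read from lists written for this purpose. Among the nucleases that cut junctions and their partner subunits, together named junction nucleases here, 5 of 7 were tested without glucose. All 5 were called, 3 lower and 2 higher in KMT2D-KO, against 24.9% lower and 25.9% higher over all genes, the background for every list that follows. All list calls without glucose come from the fit that kept the similar pairs of experiment 2 separate. With the pairs summed, 1268 lower and 1517 higher of 16867 genes were called, and the lists were not read from that fit. GEN1, the Holliday junction resolvase, was -1.99 ± 0.22 on the log2 scale (89.1 to 19.5 CPM, group means), and SLX4, the nuclease scaffold, was -1.54 ± 0.16 (38.6 to 13.7 CPM). MUS81, the catalytic subunit of another resolvase, was higher by 0.52 ± 0.06, and of its alternative partners EME2 was higher by 1.06 ± 0.22 and EME1, named after its values were seen, was lower (-0.89 ± 0.12). In the FANCM group, which anchors the dissolvasome at DNA damage, 2 of 4 were lower, FAAP24 (-1.24 ± 0.34) and FANCM itself (-1.17 ± 0.18), and CENPX was higher (0.35 ± 0.12).

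Of 9 resection and single-strand binding genes, 2 were lower and 1 higher, not above the background of 24.9% and 25.9%. DNA2, the nuclease that works with BLM or WRN in resection, was -0.96 ± 0.10, the nuclease MRE11 was -0.39 ± 0.09, and its partner NBN was higher by 0.53 ± 0.08. Of 14 strand exchange genes 3 were lower, among them BRCA1 (-0.87 ± 0.09) and XRCC2 (-0.60 ± 0.09), and 2 were higher, XRCC3 (0.59 ± 0.12) and SPIDR (0.28 ± 0.06). The list medians were -0.01 and -0.12, against -0.89 for the junction nucleases and -0.64 for the FANCM group. The last 2 are medians of 5 and 4 genes that did not all move one way, and the lists were not tested against each other. Of 13 other repair and fork helicases 6 were lower, with PIF1 (-0.84 ± 0.11) and the mitotic translocase ERCC6L (-0.81 ± 0.10) lowest, and FBH1 was higher (0.46 ± 0.07).

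The other topoisomerases moved in both directions. TOP2B (-0.46 ± 0.06) and TOP2A (-0.39 ± 0.08), which cut both strands, were lower, and the mitochondrial TOP1MT was higher by 0.94 ± 0.07, with 42.9 against 86.9 CPM. Of 4 TOP3B partners TDRD3 was higher (0.50 ± 0.15) and the other 3 did not pass. The edgeR adjusted p-values of the partner genes named here were between 0.000117 and 0.0476, with the similar pairs kept separate.

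**Figure D5:**
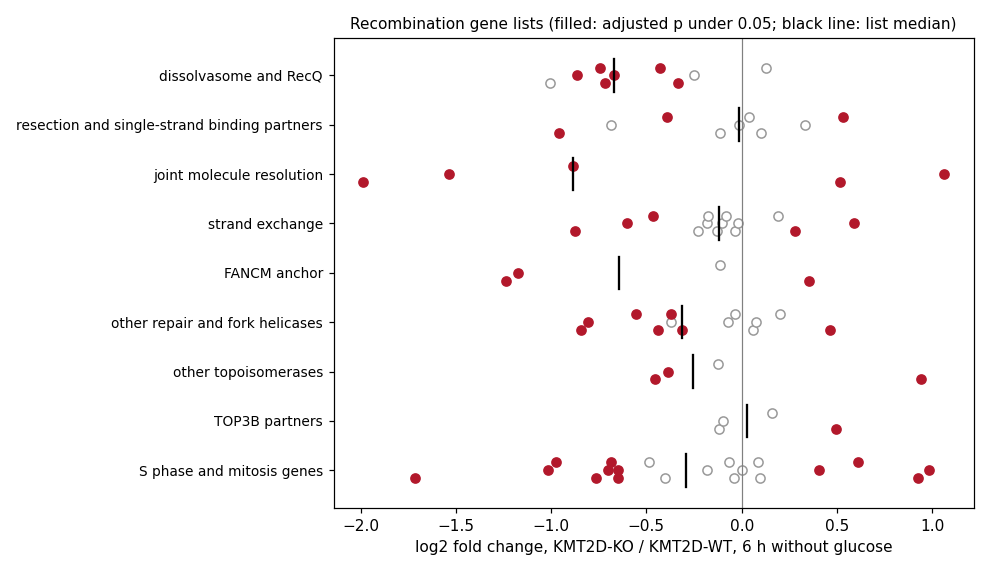
Log2 fold change of KMT2D-KO against KMT2D-WT after 6 h without glucose (horizontal axis) for the 9 dissolvasome and RecQ genes and for lists of genes that act beside them; each point is a gene, filled red for an adjusted p under 0.05, the black line is the list median, and the height of points within a row has no meaning. The medians of the 9 genes (-0.67), the junction nucleases (-0.89) and the FANCM group (-0.64) lie left of those of the resection (-0.01) and strand exchange (-0.12) lists. Of the 5 junction nucleases 2, and of the 4 genes of the FANCM group 1, were called higher.

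The summed level of proliferation genes was lower in every KMT2D-KO library than in every KMT2D-WT library of the same glucose condition. The summed level of 20 S phase and mitosis genes was 6449 to 7385 CPM in KMT2D-WT and 4649 to 4893 CPM in KMT2D-KO with glucose, and 5745 to 5822 CPM against 4078 to 4972 CPM without. Without glucose 8 of the 20 were lower and 4 higher in KMT2D-KO, so the list did not move one way. MKI67, a marker of cycling cells, was -1.72 ± 0.06, from a mean of 1770 to 528 CPM, which is most of the difference in the sum, and the mitotic kinase BUB1 -1.02 ± 0.30, while the licensing factors CDT1 (0.98 ± 0.06) and MCM4 (0.93 ± 0.05) were higher. The part of proliferation in the differences of the dissolvasome genes was not tested.

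The genes whose log2 CPM over the 14 libraries was most like that of a subunit were taken from 10888 genes with a mean of at least 5 CPM. For TOP3A they were LINC00205 (Pearson r = 0.982), WBP1L (0.977) and SOGA1 (0.974). For RMI2 they were FAN1, a nuclease of crosslink repair (0.980), AL162595.1 (0.979) and TMEM161B-AS1 (0.976). For RMI1 they were BIRC2 (0.989), LYSMD3 (0.989) and KNL1 (0.986), and for BLM they were FAM20B (0.991), CEP295 (0.991) and BRD7 (0.988). The libraries share experiment, genotype and glucose condition, and RMI1 and BLM differed between the experiments, so these values are descriptions of likeness only.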

How the data were processed

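Polyadenylated RNA of 14 SCC23 libraries was analysed. The authors aligned reads with HISAT2 and counted them per gene name with featureCounts 2.0.3 (Ensembl annotation 102, GRCh38), without strand and without reads that overlap more than 1 gene, per the file headers, and the deposited values are raw counts. Primary alignments were counted. Groups came from the labels. The quasi-likelihood test of edgeR 4.0.16 (R 4.3.3) was run on the counts (minimum count 10 in filterByExpr, TMM, experiment as covariate, Benjamini-Hochberg adjusted p under 0.05 over all genes tested). The study names DESeq2 without a covariate, and DESeq2 1.42.0 with and without experiment was an alternative, as were another normalization, no filter, an offset for exonic length, halved counts of both-mates libraries, summed similar pairs, each experiment, each line, and each library left out. The fits were tested on simulated counts of independent libraries without an experiment effect, so the simulation does not cover the experiment term or the similar pairs. The 9 genes and all lists were chosen with earlier results of these data known. Named beside them were KMT2D, genes sharing over 10% of a member's exonic bases, up to 2 genes per list and direction with the largest called change without glucose, and the 3 most similar genes of each subunit. Total counts set the counting error, and replicate spread sets the precision.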

Additional observations from a re-analysis of the deposited data

Results flagged for a closer look

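One level stood apart from its group of 4 libraries. RECQL4 had 102.3 CPM in the KO2 library of experiment 1 without glucose, against 68.3 to 72.1 CPM in the other 3 KMT2D-KO libraries, and the gap made up 0.889 of the range of the group, above Dixon's critical value. In 18 such tests, 9 genes in each of the 2 KMT2D-KO groups, chance flags about 1 in 20 if the 4 libraries are independent draws. They came from 2 experiments, and the group without glucose holds a similar pair, so that rate need not hold. RECQL4 also differed between experiments in KMT2D-WT without glucose, at 94.1 CPM in experiment 1 and 56.4 and 54.1 CPM in experiment 2. The KMT2D-KO difference of RECQL4 had opposite signs in the 2 experiments, both with and without glucose.

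The KMT2D-KO effect differed between the glucose conditions in the fit of all 14 libraries for TOP3A (-0.54 on the log2 scale), RMI2 (-0.65) and RECQL5 (-0.93). For RECQL5 the estimate was above 0 with glucose and below 0 without. Summing the similar pairs of experiment 2 left none of the 3 below the threshold while the differences stayed at -0.55, -0.65 and -0.94.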

How the results depend on the processing

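Without glucose, the count of 6 genes lower in KMT2D-KO became 2 with no replicate block for experiment, 2 with DESeq2 without experiment, 3 with similar pairs summed and 0 in experiment 1 alone (1 against 2 libraries), and 1 gene was higher in experiment 2 alone and in line KO2 alone. With glucose, the 1 lower gene became 0 with no replicate block, DESeq2 without experiment, the length offset, either experiment alone or a 1.5-fold minimum, and 2 with DESeq2 with experiment and with line KO2 alone, where 1 was higher. For glucose in KMT2D-WT, 2 lower became 1 with the length offset and 0 with no replicate block, DESeq2 without experiment and summed pairs. The 1 higher gene there became 0 in the last 3 and 2 with DESeq2 with experiment, no filter and experiment 2 alone. For glucose in KMT2D-KO, 4 lower became 2 with no replicate block and 0 in experiment 1 alone. For the difference between conditions, 3 became 0 with no replicate block, summed pairs and experiment 1 alone, and 1 with DESeq2 without experiment. Leaving out 1 library gave 4 to 8 lower and 0 to 1 higher without glucose, 0 to 1 lower with glucose, 0 to 3 lower and 0 to 2 higher for glucose in KMT2D-WT, 3 to 6 lower in KMT2D-KO, and 2 to 5 lower for the difference between conditions. Over all genes, experiment 2 alone without glucose called 6494 lower and 6394 higher of 17304, and line KO2 alone 6010 and 5948 of 17637. The difference test called 50 lower and 20 higher of 18678 with no replicate block. With summed pairs it called 192 and 66 of 21043, and with DESeq2 without experiment 402 and 192 of 17946. With glucose, 476 were called lower and 495 higher of 20423 with no replicate block. DESeq2 without experiment called 1184 and 1388 of 20421 there, and experiment 2 alone 1125 and 1211 of 19885. With 1 library left out, genes called lower ran from 2926 of 17559 to 6312 of 16739 without glucose. With glucose they ran from 1008 of 21365 to 2435 of 19354. For glucose removal they ran from 0 of 17694 to 4004 of 18430 in KMT2D-WT and 1139 of 16540 to 3380 of 16960 in KMT2D-KO. For the difference they ran from 470 of 19677 to 2093 of 18767.

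Signs turned for some uncalled values. With glucose, RECQL became -0.029 with no replicate block, -0.015 with DESeq2 without experiment, -0.11 with KO2 alone and -0.015 to 0.144 with a library left out. RECQL4 became -0.11 in experiment 1 and -0.010 with KO1 alone, and RECQL5 -0.027 in experiment 1. Without glucose RECQL4 became -0.13 in experiment 1 and -0.018 with KO1 alone. For glucose in KMT2D-WT, RMI2 became 0.024 and 0.020 with DESeq2 with and without experiment, 0.029 with RLE, 0.015 without a filter, 0.040 with the length offset and 0.036 with summed pairs, and -0.081 to 0.039 with a library left out. TOP3A was -0.14 to 0.0070 with a library left out. For glucose in KMT2D-KO, WRN became 0.0011 with the length offset. For the difference between conditions, RECQL4 became -0.019 with summed pairs and -0.059 in experiment 1, TOP3B 0.37 in experiment 1, and RECQL4 -0.073 to 0.26 with a library left out. Experiment 1 alone called 0 genes of all tested for KMT2D-KO without glucose, for glucose in KMT2D-KO and for the difference between conditions, and for glucose in KMT2D-WT no replicate block called 2 genes of all tested and summed pairs 1, so these counts of 0 say nothing about the 9 genes. Other causes were not tested. Glucose in KMT2D-WT in experiment 1 alone was not run, since it is 1 library against 1.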

Other observations

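Of the 5 junction nucleases tested, 4 were lower after removal of glucose in KMT2D-KO cells (16% of all genes), with a median log2 fold change of -1.04. MUS81 did not pass the test there (0.17 ± 0.08). EME2, among the 4 lower, was higher in KMT2D-KO than in KMT2D-WT without glucose. In KMT2D-WT cells 2 of 5 were lower (7.58% of all genes) with a median of -0.19. In the test of whether the KMT2D-KO effect changed with glucose, 3 of these 5 were lower and 1 was higher, against 6.54% and 4.73% of all genes. In the resection list, 1 of 9 was lower and 3 were higher in KMT2D-WT cells after removal of glucose (7.15% of all genes higher), and 1 was lower in KMT2D-KO cells. SMIM5, the neighbour of RECQL5, was lower in KMT2D-KO cells without glucose than with it by -2.82 ± 0.45 on the log2 scale (edgeR adjusted p = 0.00542), at 2 or 3 counts in each of the 4 libraries without glucose.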
